A study of Rattus norvegicus with 24 samples.

Results

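The mucosa of the nose metabolises inhaled chemicals with a set of enzymes, many of them known from the sustentacular (support) cells and the Bowman's glands of the olfactory lining. Described here are 8 of these genes, chosen as listed phase I and phase II enzymes of those cells and their electron donor: the cytochromes P450 Cyp2g1, Cyp1a2, Cyp2a3, Cyp2f4 and Cyp4b1, the flavin-containing monooxygenase Fmo1, the P450 reductase Por and the UDP-glucuronosyltransferase Ugt2a1. Each was read by 1 probe set of the 29214 on the array, so 8 probe sets make up the group. Male Fischer rats, about 8 weeks old at the start, inhaled 2 ppm formaldehyde, vaporised from [13CD2]-paraformaldehyde, through the nose only, 6 hours daily, until day 7 or day 28. Control rats of the same strain and age sat in the same kind of tube with room air for as long. Messenger RNA was measured on Affymetrix arrays in nasal epithelium (taken from the maxilloturbinate, a scroll of the lateral nasal wall) and in white blood cells, which serve here as background. There were 24 arrays, 3 in each of 8 combinations of tissue, day and exposure. Whether an array stands for a separate animal or a pool is not stated in the labels, and every p-value here reflects just the spread among these samples, which may be technical.

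Phase I enzymes put a reactive oxygen-bearing group onto a lipid-soluble chemical, and phase II enzymes then attach a water-soluble group such as glucuronic acid so that the product can be cleared. Microsomal P450 enzymes cannot work without electrons from NADPH, which Por passes to them. In the olfactory mucosa the same chemistry is known both to protect neurons from inhaled toxicants and to remove odorants, and some of its enzymes turn a harmless chemical into a toxic product in the lining itself.

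Values are given as log2 of the deposited normalised intensity, so that a difference of 1 is a doubling. The median intensity of an array was 305 to 312 in nose at 7 days and 163 to 172 in nose at 28 days, and levels were therefore not compared between the days. Olfactory neuron markers were present in every nose array although the labels name the maxilloturbinate, a turbinate known for respiratory rather than olfactory lining. Omp, the marker of mature olfactory neurons, ranged from 8.15 to 13.07 on the 12 nose arrays, beside 6.74 to 7.52 in blood. Foxj1, the master regulator of ciliated cells, ranged from 8.74 to 9.92 in nose, beside 7.25 to 7.87 in blood. Blood values of both also exceeded 6.61, the level below which nose probe sets were left out as dim. Passing that level alone therefore does not show that a marker is present. The club cell product Scgb1a1 stayed near that level at 5.96 to 6.78. Blood carried the leukocyte marker Ptprc at 11.89 to 12.94. In nose at 28 days the control array of replicate 1 stood apart from the other 2 controls. There 600 probe sets (2.74% of those tested) lay more than 1 log2 unit below the mean of controls 2 and 3, and 30 (0.137%) lay more than 3 units below it. Cyp2g1, Ugt2a1 and Cyp1a2 were among these 30, and results that rest on this array are given with and without it.

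Nasal tissue held all 8 enzymes far above blood. Cyp2g1, a P450 known almost entirely from olfactory mucosa, measured 12.09, 13.30 and 13.17 in the 7 day controls and 13.70, 13.59 and 13.52 after 7 days of formaldehyde. In the 28 day controls it measured 9.62, 12.82 and 12.90, and after 28 days of formaldehyde 12.62, 12.95 and 12.57. Its exposed arrays lay above all controls at 7 days, as they did for 20.8% of all probe sets tested. At 28 days the exposed arrays overlapped controls 2 and 3 while control 1 was far lower.

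Cyp1a2, which oxidises aromatic amines and is best known from liver, was also lowest on control array 1 of both days. It stood at 10.67, 11.87 and 11.65 in the 7 day controls and at 12.71, 12.48 and 12.35 in the exposed animals. At 28 days the controls gave 7.52, 10.89 and 10.86 and the exposed arrays 10.86, 11.28 and 10.87. Again only control 1 was low at 28 days, and the groups did not overlap at 7 days (20.8% of all probe sets lay above all controls).

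The other 2 P450 enzymes of subfamilies 2A and 2F were nearly level. Cyp2a3, a nasal P450 that activates several nasal toxicants, had a mean of 13.54 ± 0.09 (SD, n = 3) in the 7 day controls and 13.62 ± 0.04 (SD, n = 3) in the exposed, and at 28 days 12.80 ± 0.14 and 12.92 ± 0.08 (SD, n = 3 each). Cyp2f4, which oxidises naphthalene and similar chemicals in airway and nose, had 13.77 ± 0.02 and 13.70 ± 0.02 at 7 days and 12.89 ± 0.27 and 13.06 ± 0.12 at 28 days (SD, n = 3 each). Both lay within 1.13 log2 units of the brightest probe set of their array on all 12 nose arrays, and whether such bright probe sets still respond in proportion was not tested.

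Cyp4b1, a P450 of lung and nose that activates furans and aromatic amines, ran the other way. It measured 11.84, 11.74 and 11.85 in the 7 day controls and 10.38, 11.39 and 11.44 after exposure. All 3 exposed arrays were below all controls, as they were for 32.4% of all probe sets. Exposed array 1 was about 1 log2 unit below the other 2. At 28 days the controls measured 10.73, 10.48 and 10.59 and the exposed arrays 10.28, 10.41 and 10.40, again without overlap (8.7% of all probe sets lay below all controls).

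Fmo1, which oxygenates nitrogen and sulphur in foreign chemicals, ranged from 12.54 to 12.71 in the 7 day controls and from 12.65 to 12.88 in the exposed. At 28 days it ranged from 11.16 to 11.46 and from 11.19 to 11.67. Por ranged from 11.69 to 11.98 in the 7 day controls and from 12.05 to 12.13 in the exposed, and at 28 days from 10.11 to 10.74 and from 10.54 to 11.00. The groups of Fmo1 overlapped at both days, and those of Por at 28 days.

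Ugt2a1, the olfactory enzyme that glucuronidates odorants and the only phase II enzyme of the group, had the same low control arrays as Cyp2g1 and Cyp1a2. Its 7 day controls measured 10.79, 12.28 and 12.04 and its exposed arrays 13.06, 12.86 and 12.78. The 28 day controls measured 8.16, 11.81 and 11.73 and the exposed arrays 11.60, 11.95 and 11.50. Control 1 was the lowest array at both days.

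**Figure D1:**
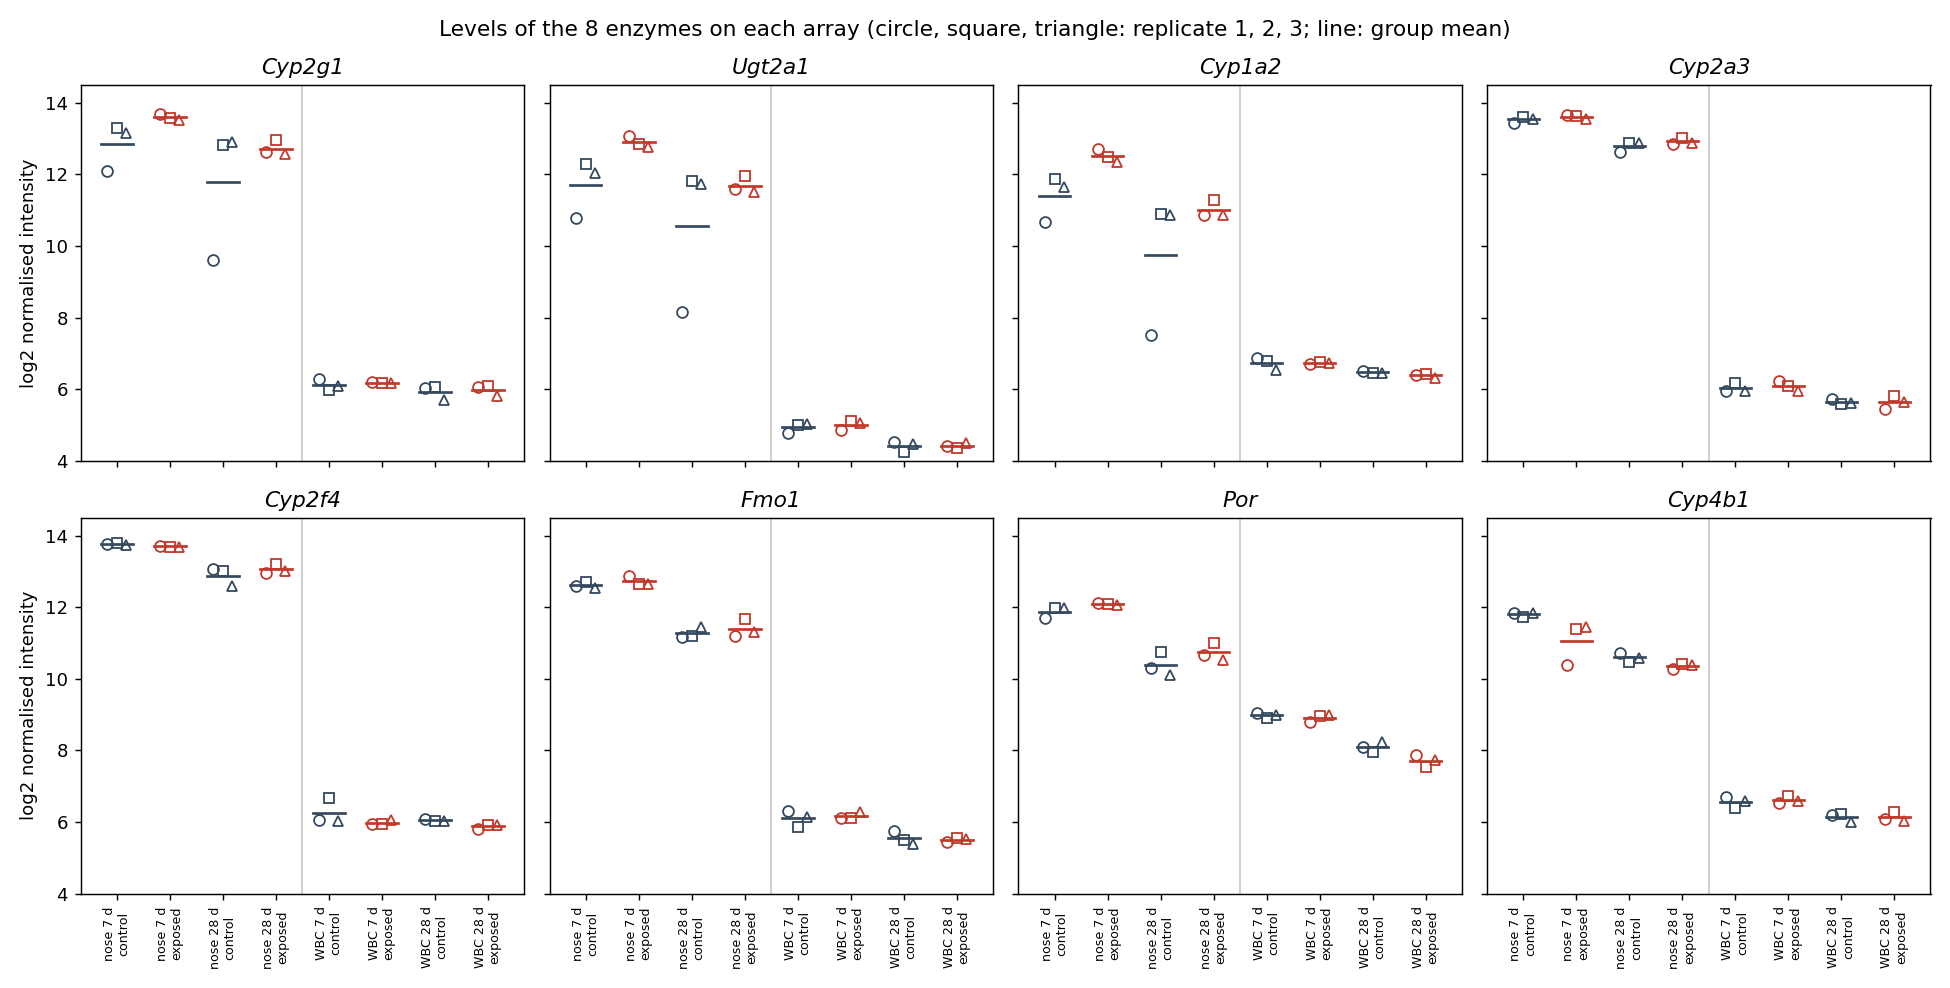
Log2 normalised intensity (vertical axis) of the 8 enzymes on each of the 24 arrays, by tissue, day and exposure (WBC, white blood cells; lines, group means of 3 arrays). Cyp2g1, Ugt2a1 and Cyp1a2 show a low control array 1 in nose at both days, Cyp2a3 and Cyp2f4 are nearly level, and Cyp4b1 is lower in exposed nose at 7 days.

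The first comparison asked whether 7 days of formaldehyde changed these enzymes in the nose. Only Cyp4b1 passed the test (limma on the 12 nose arrays, two-sided, adjusted p under 0.05 by Benjamini-Hochberg over 21910 probe sets). It fell by 0.74 ± 0.22 on the log2 scale (SE, n = 3 against 3), or 1.67-fold, with an adjusted p of 0.0451 in limma. That is 1 of 8 enzymes, where 16.3% of all probe sets tested passed in either direction and 7.84% as a fall, so the count does not stand apart from the background. The call was narrow: without exposed array 1 the difference was -0.40 with an adjusted p of 0.0479 in limma, and without control 1, 2 or 3 the limma adjusted p was 0.136, 0.083 and 0.116. It also failed with the replicate number as a block (limma adjusted p of 0.061), with no filter on dim probe sets (0.052) and with quantile normalization (0.0553). Markers of some other cells were low on the same array. The mean of 14 endothelial genes was 8.63 on exposed array 1 against 8.94 and 9.0 on arrays 2 and 3 and 9.43 to 9.72 in the controls, that of 10 basal and squamous genes 7.98 against 8.65, 8.92 and 8.92 to 9.29, and that of 11 leukocyte genes 8.24 against 8.35, 8.42 and 8.71 to 8.90. That of 10 respiratory secretory genes was 10.11 against 10.59, 10.40 and 10.56 to 10.70. Not all lists did so. The mean of 22 olfactory neuron genes was highest on exposed array 1, at 11.32 against 10.94 and 10.96. That of 12 ciliated cell genes was 9.54, within the control range of 9.45 to 9.75. The part of these cells in the fall of Cyp4b1 was not tested, and in bulk tissue fewer cells of a type and less RNA per cell cannot be told apart.

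Ugt2a1 and Cyp1a2 had the largest 7 day differences of the 8, at 1.20 ± 0.79 and 1.12 ± 0.72 (SE; 95% intervals -0.54 to 2.94 and -0.48 to 2.71), and with all 12 arrays in the fit neither passed (limma adjusted p of 0.354 and 0.345). Cyp2g1 differed by 0.75 ± 0.70 (interval -0.80 to 2.30). These errors take in the 28 day control array 1, since the 12 nose arrays share 1 estimate of the spread. When that array was kept out of the fit, an alternative added after the values were seen, Ugt2a1 and Cyp1a2 passed at the same differences (limma adjusted p of 0.0214 and 0.0135), Cyp4b1 passed at 0.04, and Cyp2g1 did not at 0.0649. The count was then 3 of 8, where 23.0% of all probe sets passed. With the 7 day control array 1 left out as well, the differences were smaller, 0.74 for Ugt2a1 and 0.76 for Cyp1a2 (limma adjusted p of 0.0133 and 0.0146), and Cyp4b1 did not pass at -0.73 (0.109), which made 2 of 8 against a background of 12.1%.

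The remaining 4 enzymes showed small 7 day differences. They were 0.21 ± 0.16 for Por, 0.12 ± 0.13 for Fmo1, 0.08 ± 0.09 for Cyp2a3 and -0.07 ± 0.12 for Cyp2f4 (SE, limma adjusted p of 0.453 to 0.777). The 95% intervals bound the change of Cyp2a3 between -0.12 and 0.27 and that of Cyp2f4 between -0.33 and 0.20. Exposed arrays lay above all controls for Cyp2g1, Ugt2a1, Cyp1a2 and Por, 4 of 8, where 20.8% of all probe sets did so, and below all controls for Cyp4b1 and Cyp2f4, 2 of 8, against 32.4%. The median difference of the 8 was 0.16, beside -0.05 over all probe sets tested.

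**Figure D2:**
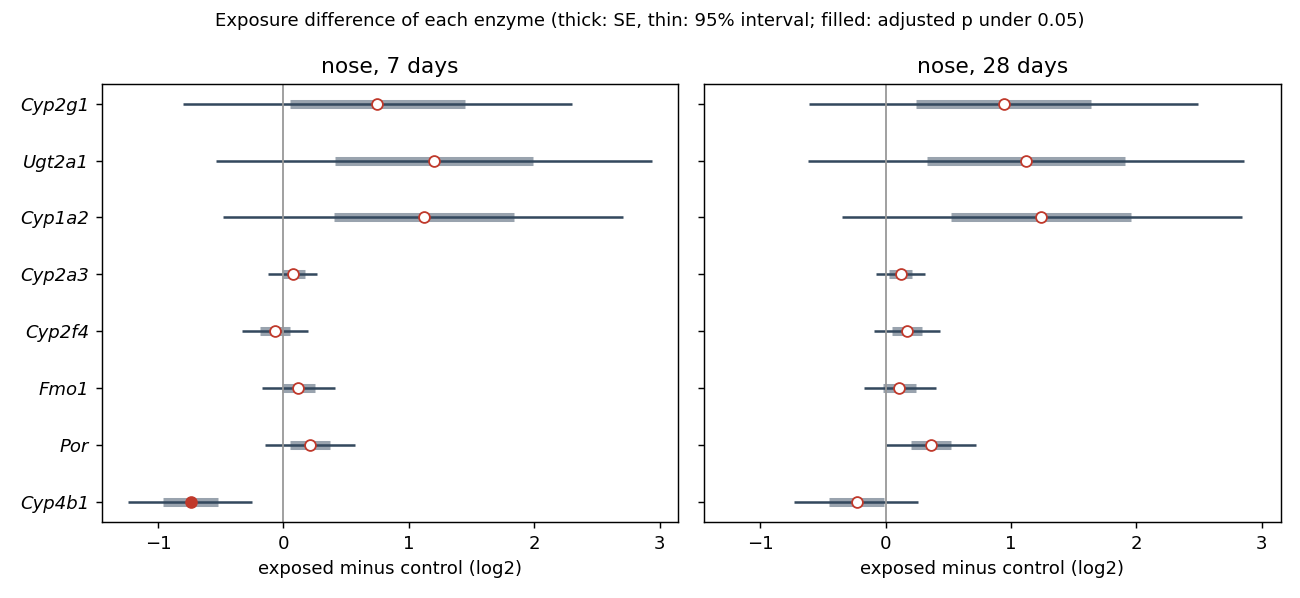
Difference of exposed minus control (log2, horizontal axis) of each enzyme in nose at 7 and 28 days, with the standard error (thick bar) and 95% interval (thin bar) of the limma fit. The only filled point, past the threshold, is Cyp4b1 at 7 days, and the intervals of Cyp2g1, Ugt2a1 and Cyp1a2 are the widest.

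After 28 days none of the 8 enzymes passed in limma, and 0 of 8 did so at an unadjusted p under 0.05. Among all probe sets 1 passed (0.00456%), or 0 with the replicate number as a block, and 3385 (15.4%) had an unadjusted p under 0.05. The differences were 1.24 ± 0.72 for Cyp1a2, 1.12 ± 0.79 for Ugt2a1, 0.94 ± 0.70 for Cyp2g1 and 0.36 ± 0.16 for Por (SE, n = 3 against 3), and the other 4 ranged from -0.23 for Cyp4b1 to 0.17 for Cyp2f4. The first 3 rest on control array 1. Without it they were 0.13 for Cyp1a2, -0.08 for Ugt2a1 and -0.15 for Cyp2g1, with limma adjusted p of 0.832, 0.909 and 0.798, so that the last 2 changed sign, while 1081 probe sets in all passed. Fmo1, at 0.11, went to -0.03 without exposed array 2. Cyp4b1 was below all controls on the 3 exposed arrays (8.70% of all probe sets were), and the other 7 enzymes overlapped.

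The difference between the 28 day and the 7 day effect was tested directly. No enzyme passed (limma adjusted p of 0.461 to 0.993), where 0.1% of all probe sets did. An unadjusted p under 0.05 was found for 2977 probe sets (13.6%) but 0 of the 8. For Cyp4b1 the difference between the effects was 0.51 ± 0.32 (SE, 95% interval -0.19 to 1.20). For Cyp2g1, Ugt2a1 and Cyp1a2 the intervals spanned more than 2 log2 units on either side. Without the 28 day control array 1 the difference for Cyp1a2 was -0.99 instead of 0.12 and that for Cyp2g1 -0.90 instead of 0.19 (limma adjusted p of 0.114 and 0.146), and that for Ugt2a1 -1.28 instead of -0.08 (0.0941), while 2648 probe sets in all passed in place of 22.

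Averaged over both days, the exposure effect again gave 0 of 8 past the threshold, beside 17.1% of all probe sets. At an unadjusted p under 0.05 there were 3, namely Cyp4b1 at -0.49 ± 0.16, Por at 0.28 ± 0.12 and Cyp1a2 at 1.18 ± 0.51 (SE, limma adjusted p of 0.056, 0.12 and 0.141). Over all probe sets 6891 (31.5%) had an unadjusted p under 0.05, so 3 of 8 is near the background. Single arrays set which side of the threshold these fell on. Cyp4b1 passed without 7 day exposed array 1 (-0.32, adjusted p 0.0172 in limma), 2 (-0.57, 0.0408) or 3 (-0.58, 0.0335), and Por passed without 28 day control array 2 (0.37, 0.0237). With control 1 of both days left out Cyp1a2 passed at 0.44 (0.033).

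The enzymes differed widely in how much they varied among arrays of the same group. The pooled SD within nose groups was 1.12 for Ugt2a1, 1.03 for Cyp1a2 and 1.0 for Cyp2g1, at percentiles 99.8, 99.7 and 99.7 of all probe sets tested. It was 0.31 for Cyp4b1 (percentile 89.1), 0.22 for Por (75.9), 0.17 for Fmo1 (60.1), 0.15 for Cyp2f4 (50.8) and 0.10 for Cyp2a3 (18.7). Without the 28 day control array 1 the first 3 dropped to 0.45, 0.38 and 0.38, still at percentiles 97.3, 95.6 and 95.6. Cyp4b1 was then close to them, at 0.32 and percentile 93.5. On that array Ugt2a1, Cyp1a2 and Cyp2g1 differed from the mean of controls 2 and 3 by -3.61, -3.35 and -3.24 log2 units, and the other 5 enzymes by -0.25 to 0.28. Which cells held each enzyme in this tissue was not measured. On the 7 day control array 1 the same 3 genes differed from controls 2 and 3 by -1.37, -1.09 and -1.14.

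Genes of olfactory neurons were low on the same arrays. The mean of 22 olfactory neuron genes was 8.92, 9.99 and 9.81 in the 7 day controls, 11.32, 10.94 and 10.96 in the 7 day exposed, 7.55, 9.46 and 9.19 in the 28 day controls and 9.53, 9.77 and 9.43 in the 28 day exposed. Control 1 was the lowest array of each day, and at 7 days the groups did not overlap. In the limma fit 12 of the 22 neuron genes rose at 7 days and 0 fell (median 1.56, beside -0.05 over all probe sets), with 0 past the threshold at 28 days (median 0.94). Over all probe sets 8.43% passed as higher and 7.84% as lower at 7 days, and 0.00456% in either direction at 28 days. Lists of some other cells were at their highest on the 28 day control array 1. Its means were 9.08 for basal and squamous genes against 7.65 to 8.25 on the other 5 nose arrays of that day, 8.57 for endothelial genes against 8.01 to 8.21 and 10.34 for 10 respiratory secretory genes against 9.51 to 10.05, and 233 probe sets (1.06%) lay more than 1 log2 unit above the mean of controls 2 and 3. The 7 day control array 1 was likewise the highest of its day for these lists, at 9.29, 9.72 and 10.70. Not all lists did so. On the 28 day control array 1 the ciliated cell list was at its lowest of that day, 8.44 beside 8.47 to 8.65. Support cell and gland markers other than the 8 enzymes were at 10.03 there, beside 10.01 to 10.20. The part of the neuron content or of these cells in the levels of Ugt2a1, Cyp1a2 and Cyp2g1 was not tested.

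Likeness to other genes was measured as the root mean square distance between profiles over the 12 nose arrays after each day's mean was taken off. Among the 8 enzymes the 3 most variable ones lay nearest to each other, at 0.11 between Ugt2a1 and Cyp1a2, 0.18 between Cyp1a2 and Cyp2g1 and 0.20 between Ugt2a1 and Cyp2g1. They lay at 0.82 to 1.31 from the other 5. Some genes outside the group were nearer to Ugt2a1 and Cyp1a2 than Cyp2g1 was. Cyp1a2 was most like Stoml3 (0.13), Gnal (0.18) and S100a5 (0.22), and Ugt2a1 was most like S100a5 (0.17), Stoml3 (0.18) and Gnal (0.18). Gnal encodes the G protein subunit of odorant receptor signalling, Stoml3 a membrane protein of sensory neurons and S100a5 a calcium-binding protein of olfactory neurons. Cyp2g1 was most like Stoml3 (0.23), Wfdc18 (0.25) and Gpx6 (0.28), and Gpx6 is a glutathione peroxidase known from olfactory glands. The distances are over 12 arrays that share the low control arrays, and all 5 of these genes were also low on the 28 day control array 1, at 7.92 to 9.95 beside 10.45 to 12.73 on the other 5 nose arrays of that day.

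**Figure D3:**
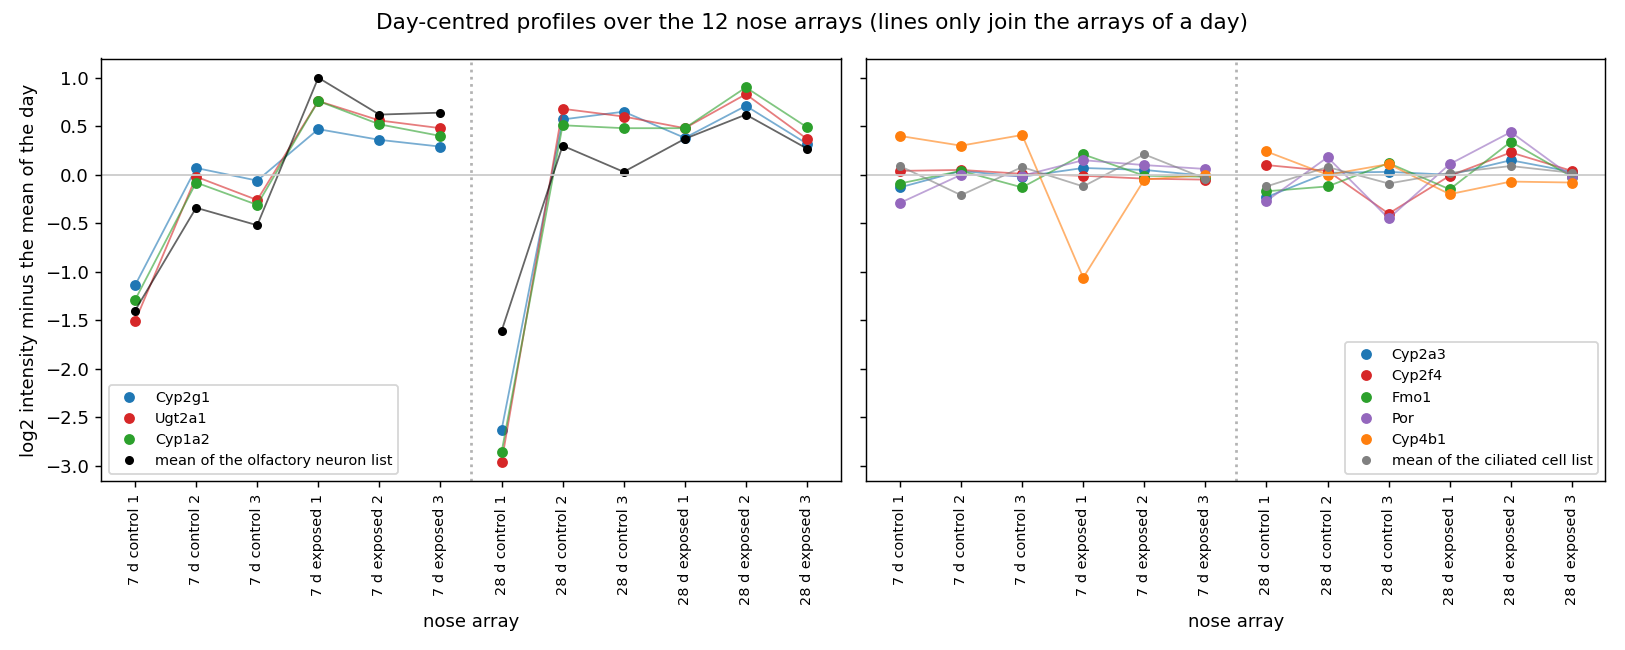
Log2 intensity minus the mean of the day (vertical axis) on the 12 nose arrays, for Cyp2g1, Ugt2a1 and Cyp1a2 with the mean of the 22 olfactory neuron genes (left) and for the other 5 enzymes with the mean of 12 ciliated cell genes (right). The left profiles drop together on control array 1 of each day, and on the right Cyp4b1 drops on 7 day exposed array 1.

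Neighbours on the chromosome differed in this spread. In the RefSeq annotation (GRCr8) Cyp2g1, variable, and Cyp2a3, nearly level, are neighbours on chromosome 1 with 0 protein-coding genes between them, and Cyp2f4 lies 2 protein-coding genes beyond Cyp2a3. In the same cluster Cyp2t1 fell at 7 days by 0.82 on the log2 scale (SE 0.22, limma adjusted p of 0.0302), whereas Cyp2b1, Cyp2b2 and Cyp2b21 had differences of -0.73, -0.75 and 1.04 that did not pass (0.145, 0.12 and 0.154). Cyp2 genes of a cluster are close copies, so their probe sets may share target RNA, and this was not tested. Near Ugt2a1, the sulfotransferase gene Sult1d1 ranged from 7.92 to 12.08 in nose and differed by 1.66 ± 0.63 at 7 days (SE, limma adjusted p of 0.0993). Cyp1a1, the close relative and neighbour of Cyp1a2, ranged only from 5.98 to 7.78 and differed by 0.30 ± 0.15 (0.193).

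Promoters are shown for 4 members to set a variable and a level gene of the chromosome 1 cluster beside each other, and to set Cyp1a2 beside Cyp4b1, whose 7 day differences had opposite signs. RefSeq promoters (GRCr8, 250 bases before the gene start and 50 from it on, written 5′ to 3′ along the gene) matched 7 of the 8 members. Capitals mark the TATA box (letters TATAAA), the CCAAT box and the palindrome of nuclear factor I (TGGC, then 5 free bases, then GCCA), all searched on both strands.
Cyp2g1 promoter, chr1:91273059-91273358, plus strand: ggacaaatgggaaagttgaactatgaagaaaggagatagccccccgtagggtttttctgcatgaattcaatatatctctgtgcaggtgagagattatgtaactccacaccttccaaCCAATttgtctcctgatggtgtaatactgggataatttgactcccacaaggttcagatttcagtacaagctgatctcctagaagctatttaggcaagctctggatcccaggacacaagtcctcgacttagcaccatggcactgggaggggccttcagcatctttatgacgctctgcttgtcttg
Cyp2a3 promoter, chr1:91299334-91299633, plus strand: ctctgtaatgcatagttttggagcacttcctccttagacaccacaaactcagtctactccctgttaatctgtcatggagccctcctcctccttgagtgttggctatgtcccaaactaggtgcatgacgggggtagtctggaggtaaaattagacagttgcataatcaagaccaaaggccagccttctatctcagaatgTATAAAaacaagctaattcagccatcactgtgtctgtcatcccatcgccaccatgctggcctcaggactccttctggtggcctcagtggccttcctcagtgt
Cyp1a2 promoter, chr8:66978100-66978399, minus strand: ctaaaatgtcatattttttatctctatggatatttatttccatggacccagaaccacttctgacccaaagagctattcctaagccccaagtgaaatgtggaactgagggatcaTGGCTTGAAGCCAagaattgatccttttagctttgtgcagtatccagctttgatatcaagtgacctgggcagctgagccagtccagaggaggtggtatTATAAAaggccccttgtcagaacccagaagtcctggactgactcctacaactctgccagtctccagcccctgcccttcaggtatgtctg
Cyp4b1 promoter, chr5:134393067-134393366, minus strand: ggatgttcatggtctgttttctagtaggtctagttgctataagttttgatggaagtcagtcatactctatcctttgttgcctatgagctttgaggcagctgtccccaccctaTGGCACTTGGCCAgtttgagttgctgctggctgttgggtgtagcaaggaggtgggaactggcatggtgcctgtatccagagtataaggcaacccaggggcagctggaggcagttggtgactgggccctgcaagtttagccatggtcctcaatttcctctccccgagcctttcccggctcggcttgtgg
The TATA box occurred 52 bases before the start of Cyp2a3 and 39 before that of Cyp1a2, and in 14.2% of the 33469 promoters. The CCAAT box occurred 134 bases before the start of Cyp2g1 and also in Cyp2f4 and Fmo1, and in 37.5% of all promoters. The palindrome occurred in Cyp1a2 (137 bases before the start) and Cyp4b1 (138 bases), and in 0.792% of all promoters. Of the other motifs searched, GCGTG, the core of the dioxin response element, occurred 3 times in Por and in 29.7% of promoters, the core of the antioxidant response element (TGAC, then 3 free bases, then GC) once in Cyp4b1 (22 bases before the start) and in 12.1%, and the site of Olf/Ebf factors (TCCC, then 2 free bases, then GGGA) in 0 of the 7 and 0.834%. These other motifs are left in lower case. A match is a description of the letters and not a shown binding site.

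White blood cells gave the background. Control nose exceeded control blood for all 8 enzymes at both days in limma, where 59.1% of the 23724 probe sets tested were higher at 7 days and 47.6% at 28 days. At 7 days the difference was 5.25 ± 0.18 for Cyp4b1, 4.67 ± 0.54 for Cyp1a2 and 2.89 ± 0.14 for Por (SE, n = 3 against 3). The other 5 lay under percentile 25 of the array on 2 or 3 of the 3 blood arrays, and their differences are given as bounds, with such blood values raised to that percentile (6.17 to 6.19). They were at least 7.41 for Cyp2f4, 7.36 for Cyp2a3, 6.64 for Cyp2g1, 6.39 for Fmo1 and 5.52 for Ugt2a1. At 28 days the bounds were 7.08 for Cyp2a3, 5.56 for Fmo1 and 4.85 for Ugt2a1, and the differences of the other 5 ranged from 2.28 for Por to 6.84 for Cyp2f4. Without control nose array 1 Cyp1a2 was 4.40 instead of 3.28 and Cyp2g1 6.94 instead of 5.85. The fitted difference of Ugt2a1, with no blood value raised, was 7.35 instead of 6.15, so its bound also rests on that array. The median of all probe sets depended on scaling, being 0.43 at 7 days as deposited and -0.39 with arrays centred on their medians, and with that centring the 8 fitted differences were 2.08 to 6.70. Ugt2a1, Cyp2a3 and Fmo1 were dim in blood by the filter level of 5.96, and Cyp2g1, Cyp2f4, Cyp4b1 and Cyp1a2 stood at 5.69 to 6.86. Por, needed for P450 activity in most cell types, was the exception at 7.53 to 9.04.

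In blood, 5 enzymes entered the exposure tests and 0 passed in limma at either day (0.475% of all probe sets passed at 7 days and 5.27% at 28 days). These shares were unstable: the 104 calls at 7 days became 2 with the replicate block and 2 to 5 without control 2 or 3 or any one exposed array, and the 1154 at 28 days became 623 without control 3 or exposed 2 and 1 with only the arrays compared. At an unadjusted p under 0.05 there were 0 of 5 at 7 days, beside 3316 probe sets in all (15.1%). At 28 days there was 1 of 5, near the background of 3931 probe sets (17.9%). That gene was Por, at 8.09 ± 0.14 in the 28 day controls and 7.71 ± 0.17 in the exposed (SD, n = 3 each), a difference of -0.39 ± 0.10 (SE) with a limma adjusted p of 0.0528. The groups of Por, Cyp2f4 and Cyp1a2 did not overlap, 3 of the 5 enzymes, all lower in exposed blood, where 9.03% of all probe sets did so. Cyp2f4 and Cyp1a2 differed by just -0.17 and -0.09 (limma adjusted p of 0.614 and 0.686). Cyp2f4 lay at 5.80 to 5.92 in the exposed, under the filter level of 5.96. Por passed without control array 2 (-0.46, adjusted p 0.0472 in limma) or exposed array 1 (-0.47, 0.0295).

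The other genes of the pathway were followed in lists of named enzymes, donors and regulators. Over all 21910 probe sets tested in nose at 7 days, 8.43% passed as higher and 7.84% as lower. The counts of each list are to be read beside these shares. Of 22 other P450 genes tested in nose at 7 days, Cyp4v3, a fatty acid hydroxylase, rose by 0.62 ± 0.12, and 3 fell: Cyp4a8 (-0.97 ± 0.15), Cyp2t1 (-0.82 ± 0.22) and Cyp2d4 (-0.31 ± 0.09). Cyp4a8, of the fatty acid hydroxylase family 4 like Cyp4b1, went from 11.14 to 11.47 in controls to 10.14 to 10.71 in the exposed, without overlap. Of all probe sets tested 32.4% lay below all controls in this way. The toxicant-activating Cyp2e1 differed by 1.11 ± 0.38 and did not pass (limma adjusted p of 0.0697). Of 23 other phase I enzymes 1 rose (Cbr1, a carbonyl reductase, 0.54 ± 0.15) and 6 fell, among them the aldehyde reductase Akr7a3 (-0.96 ± 0.24), the quinone reductase Nqo1 (-0.79 ± 0.20), Cbr3 (-0.71 ± 0.16) and the carboxylesterase Ces2c (-0.69 ± 0.14). Akr7a3 was higher in 7 day control blood (mean 10.26) than in control nose (8.76), and Nqo1, Cbr3 and Ces2c were lower in blood. The part of blood cells in the fall of Akr7a3 was not tested.

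Of 24 phase II enzymes other than Ugt2a1, 0 rose and 5 fell, where 8.43% of all probe sets passed as higher and 7.84% as lower. The median of the list was -0.07, beside -0.05 over all probe sets. Those that fell were Gstp1 (-0.96 ± 0.19), Mgst2 (-0.70 ± 0.14), Gstt1 (-0.52 ± 0.10), Gsta3 (-0.46 ± 0.13) and Gstt2 (-0.40 ± 0.09). These encode transferases that attach glutathione, of which the list held 16 tested, and the other 11 ranged up to 0.53 (Gstm5, not past the threshold). This grouping was made after the values were seen and was not tested. Gstp1 went from 12.12 to 12.40 in controls to 10.78 to 11.59 in the exposed. In 7 day control blood the means of Gstp1 (11.77) and Mgst2 (8.89) were near those of control nose (12.25 and 9.20). Gstt1 (6.90) and Gstt2 (8.89) were lower in blood than in nose (9.28 and 10.77). The part of blood cells in the falls of these transferases was not tested. Among 20 electron donor and heme genes 5 rose and 3 fell. The cytochrome b5 reductases Cyb5r2 (0.48 ± 0.11) and Cyb5r4 (0.46 ± 0.10) and the heme oxygenase Hmox2 (0.62 ± 0.15) rose, and ferrochelatase Fech, the last enzyme of heme synthesis, fell (-0.47 ± 0.11). Fech was far higher in 7 day control blood (mean 13.09) than in control nose (9.73). The part of blood cells in its fall was not tested. Of 19 regulators 0 rose and 4 fell: Foxa1 (-0.94 ± 0.27) and Nfia (-0.32 ± 0.10), factors of epithelial gene programmes, Rxra (-0.60 ± 0.15), the partner of nuclear receptors, and Ahrr (-0.35 ± 0.08), the repressor of the aryl hydrocarbon receptor.

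Markers of support cells and glands other than the 8 enzymes did not move as a block. Of 17 tested at 7 days Fgf20 (0.81 ± 0.18) and Pax6 (0.52 ± 0.13) rose, and Muc13 (-1.20 ± 0.21), Hes1 (-0.64 ± 0.19) and Aqp5 (-0.37 ± 0.08), the water channel of gland cells, fell. Over all probe sets 8.43% passed as higher and 7.84% as lower. The odorant-binding protein genes Obp1f and Obp2b differed by -0.02 and 0.05, and the median of the list was -0.03, beside -0.05 over all probe sets. The array means of this list were 11.12 to 11.19 in the 7 day controls and 11.07 to 11.21 in the exposed, and at 28 days 10.01 to 10.20 and 10.12 to 10.19. Whether its genes, such as Krt8 and Krt18, are confined to support cells and glands was not tested. The mean is therefore not a measure of the content of those cells. Gpx6, a gene of this list, was at 9.95 on the 28 day control array 1, beside 12.25 to 12.62 on the other nose arrays of that day. By contrast 12 of 14 endothelial genes, 6 of 11 leukocyte genes and 3 of 10 basal and squamous genes fell at 7 days and none of those lists rose, 1 of 10 secretory genes fell, and of 12 ciliated cell genes 3 rose and 1 fell. At 28 days 0 genes of any of these lists passed in limma. The part of these cells in the enzyme falls was not tested.

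**Figure D4:**
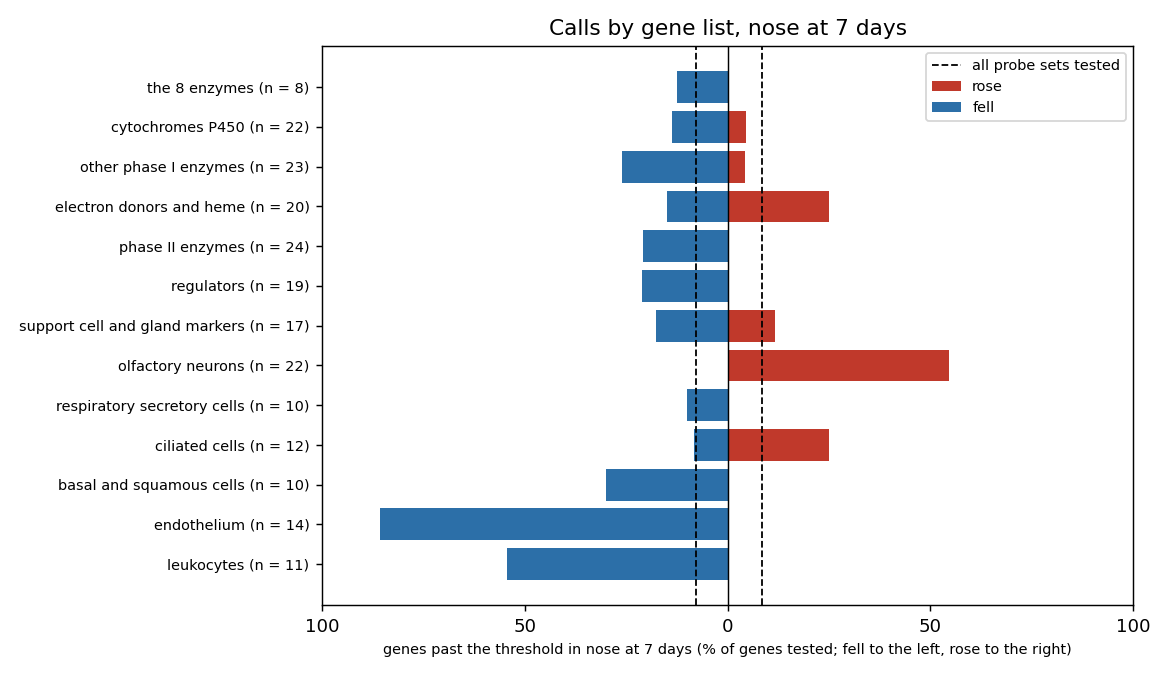
Share of tested genes of each list past the threshold in nose at 7 days (horizontal axis, %; rose to the right, fell to the left), with dashed lines at the shares of all probe sets, 8.43% higher and 7.84% lower. The enzyme lists show more falls than rises apart from electron donors and heme, and the olfactory neuron list shows rises alone.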

How the data were processed

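Messenger RNA was measured in 12 nose and 12 white blood cell arrays. The authors deposited 1 normalised intensity per probe set and array on a linear scale. The submitters' processing notes name Partek, without a version. How background, summarization and normalization were handled is not given in the sources used here. Each value's log2 was taken without normalizing again, and probe sets with a tissue mean at or above percentile 25 were tested, in either tissue for nose against blood. Precision is limited by the number of arrays, 3 in each group.

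In R 4.3.3, limma 3.58.1 (lmFit, contrasts.fit, eBayes with its default prior) took the 12 arrays of either tissue as 4 group means, or all 24 arrays for nose against blood. Tests were two-sided with Benjamini-Hochberg adjustment over all probe sets tested. GEO's platform annotation gave 1 symbol for 15310 probe sets and several for 323, and did not list 13581. A gene was read by its probe set of the highest mean. Krt5, planned as a marker, was not analysed here. Figures were drawn with matplotlib 3.10.9.

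The members and lists were chosen with earlier results of these data known. Genes named were all members, up to 4 per list past the threshold in nose at 7 days by the largest moderated statistic and the nearest 3 profiles of the 3 most variable members. Gsta3, Hes1, Cbr1, Cyp2e1, Obp1f, Obp2b and the genes beside members were named after their values were seen. The bounds against blood were added then too. Groups came from the titles. Residuals of same-numbered control and exposed arrays correlated at r of 0.174 to 0.226 in nose at 28 days and at -0.218 to -0.076 in nose at 7 days. In blood they correlated at -0.051 to 0.027 at 7 days and at -0.353 to 0.07 at 28 days. The numbers may pair the nose arrays at 28 days, but arrays of different number were not compared, so this cannot be decided. On simulated data with 200 changed probe sets the fit recovered 82.7% of 2-fold and 55.7% of 1.5-fold changes in nose at 7 days among 21910 probe sets, and 76.5% and 54.6% in nose at 28 days. The simulated noise was independent between arrays, with no shared low control array, and the changed probe sets were picked at random. These averages therefore do not apply to Cyp2g1, Cyp1a2 and Ugt2a1, whose standard errors were 0.70 to 0.79. The alternatives were other filters, scalings, priors and thresholds, a replicate block, fewer arrays in the fit and each array left out in turn.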

Additional observations from a re-analysis of the deposited data

How the results depend on the processing

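The count of enzymes past the threshold stayed at 8 for control nose against control blood at both days and at 0 for nose at 28 days, for the difference between days and for blood at 7 days, under every alternative run for them. In nose at 7 days the count of 1 became 0 with no filter on dim probe sets (Cyp4b1 adjusted p of 0.052 in limma), with quantile normalization (0.0553) and with the replicate block (0.061), and 0 to 1 with each array left out. With only the arrays compared in the fit the count was 1, but it was Cyp1a2 (1.12, 0.043) and not Cyp4b1 (0.0936). It was 3 with the 28 day control array 1 not used for the shared spread and 2 without control 1 of both days, alternatives chosen after seeing the data. The replicate block changed no other call of an enzyme.

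For the mean of both days the count of 0 became 1 at an adjusted p under 0.1, 1 without control 1 of both days and 0 to 1 with each array left out. In blood at 28 days it became 1 at an adjusted p under 0.1, 1 with the filter at the median (Por, limma adjusted p of 0.0408), 1 with quantile normalization (0.0353) and 0 to 1 with each array left out. The cause of these changes was not tested beyond the arrays named.

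Signs changed only for enzymes not past the threshold. In blood at 7 days Cyp1a2, at 0.01, was -0.03 with quantile normalization and -0.02 with median centring. Without control 1 of both days the difference between days was -0.51 for Cyp2g1 and -0.63 for Cyp1a2. With each array left out, the ranges in nose at 28 days were -0.15 to 1.5 for Cyp2g1, -0.08 to 1.74 for Ugt2a1 and -0.03 to 0.22 for Fmo1. For the difference between days they were -0.90 to 0.75 for Cyp2g1, -1.28 to 0.54 for Ugt2a1, -0.99 to 0.69 for Cyp1a2 and -0.04 to 0.09 for Cyp2a3, and for the mean of both days -0.02 to 0.10 for Cyp2f4. In blood they were -0.01 to 0.14 for Cyp2g1, -0.03 to 0.12 for Cyp4b1 and -0.08 to 0.07 for Cyp1a2 at 7 days, and -0.05 to 0.15 for Cyp2g1 and -0.08 to 0.05 for Cyp4b1 at 28 days.

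Over all probe sets the 3564 calls in nose at 7 days, of 21910 tested, became 2367 with the filter at the median, where 14607 were tested. They became 6304 with only the arrays compared and 802 to 2658 with each array left out (802 without exposed 1, 846 without control 1 and 1608 without control 3). The single call at 28 days became 73 at an adjusted p under 0.1, 42 with quantile normalization and 0 to 1081 with each array left out (1081 without control 1, 130 without control 2). In blood the 104 calls at 7 days became 2 with the replicate block, 264 with quantile normalization and 417 with only the arrays compared. They became 55 with no filter on dim probe sets (29214 tested) and 179 with the filter at the median (14607 tested). The 1154 at 28 days became 1 with only the arrays compared.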
